A study of Homo sapiens with 24 samples.

Results

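MKI67, TOP2A, HMGB1, HMGB2, HMGB3, UHRF1, DNMT1, EZH2, LMNB1 and LBR are 10 genes whose proteins build, copy or hold chromatin and whose mRNAs are abundant in dividing cells. They were taken by name, through their Ensembl gene identifiers, from 58721 gene rows measured by RNA-seq in each of 24 libraries of A549, an established human lung adenocarcinoma cell line. Messenger RNA was captured by its poly(A) tail and sequenced as read pairs. In the first experiment A549 cells were transfected with small interfering RNAs (siRNAs) against MYBL2 (siMYBL2, 4 libraries) or FOXM1 (siFOXM1, 4 libraries) at 25 nM, or with a scrambled siRNA (siControl, 4 libraries). In the second, cells received the siRNAs against both factors (siBoth, 3 libraries) or the scrambled siRNA (siControl_siBoth, 3 libraries). In the third, cells were treated for 24 h with 20 µM FDI-6, a small molecule known to displace FOXM1 from DNA (FDI-6, 3 libraries), or left as controls (control_FDI-6, 3 libraries). No group carried another edit, all libraries came from the same cell line, and the study calls its replicates biological without saying whether each was a separate culture, so p-values below measure the spread between these libraries, whatever its source.

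Each of these proteins works on the chromosome itself. MKI67 (the Ki-67 antigen) coats mitotic chromosomes and is the standard histological marker of cycling cells, and TOP2A (DNA topoisomerase II alpha) disentangles sister chromatids. UHRF1 reads hemimethylated DNA behind the replication fork and recruits DNMT1, the maintenance DNA methyltransferase, and EZH2 is the catalytic subunit of Polycomb repressive complex 2 (PRC2), which methylates histone H3 at lysine 27. HMGB1, HMGB2 and HMGB3 are high mobility group box proteins that bend DNA. LMNB1 (lamin B1) and LBR (lamin B receptor) tether heterochromatin to the nuclear envelope. MYBL2 and FOXM1 are transcription factors that act through the MuvB complex on genes of G2 and mitosis, whose promoters often hold a cell cycle genes homology region (CHR), whereas many replication genes carry E2F sites.

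The stretches of 250 bases upstream of the RefSeq start sites (build GRCh38.p14, 5′ to 3′ on the gene's strand) are shown for 3 genes that fell when MYBL2 was depleted, MKI67, TOP2A and UHRF1, and for LMNB1, whose level stayed near that of its controls. Capitals mark the words searched, on either strand: the CHR (TTTGAA or TTCGAA), the CCAAT box, 4 E2F words (TTTCCCGC, TTTCGCGC, TTTGCCGC and TTTGGCGC), the MYB word AACGG and the forkhead word GTAAACA. MKI67 lies on the minus strand at chr10:128126424-128126673, TOP2A on the minus strand at chr17:40417897-40418146, UHRF1 on the plus strand at chr19:4909251-4909500 and LMNB1 on the plus strand at chr5:126776886-126777135.
MKI67: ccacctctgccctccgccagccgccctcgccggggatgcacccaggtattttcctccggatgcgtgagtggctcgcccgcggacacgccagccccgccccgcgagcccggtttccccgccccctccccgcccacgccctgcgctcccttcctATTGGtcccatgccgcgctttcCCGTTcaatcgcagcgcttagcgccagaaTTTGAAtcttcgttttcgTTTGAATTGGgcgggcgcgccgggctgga
TOP2A: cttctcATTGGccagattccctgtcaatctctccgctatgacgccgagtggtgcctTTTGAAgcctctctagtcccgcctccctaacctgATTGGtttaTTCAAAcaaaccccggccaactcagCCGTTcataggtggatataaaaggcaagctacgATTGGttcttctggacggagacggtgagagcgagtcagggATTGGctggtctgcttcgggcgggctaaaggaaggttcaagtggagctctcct
UHRF1: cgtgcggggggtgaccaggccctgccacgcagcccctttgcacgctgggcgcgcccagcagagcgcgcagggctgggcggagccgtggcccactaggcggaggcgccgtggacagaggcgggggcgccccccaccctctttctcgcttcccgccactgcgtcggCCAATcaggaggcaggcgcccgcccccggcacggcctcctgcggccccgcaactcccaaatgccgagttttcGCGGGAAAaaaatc
LMNB1: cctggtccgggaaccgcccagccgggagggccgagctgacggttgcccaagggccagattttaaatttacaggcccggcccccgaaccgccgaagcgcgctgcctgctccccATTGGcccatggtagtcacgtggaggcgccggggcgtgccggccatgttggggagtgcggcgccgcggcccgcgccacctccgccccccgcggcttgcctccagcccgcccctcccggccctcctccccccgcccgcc

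MKI67 and TOP2A held CHR and MYB words with CCAAT boxes, and UHRF1 held no CHR but an E2F word. In the MKI67 stretch the CHR stood at bases -47 to -42 and again at -29 to -24, where it ran into a CCAAT box on the other strand. In TOP2A the CHR stood at -194 to -189 and, on the other strand, at -151 to -146, among 4 CCAAT boxes. The E2F word of UHRF1 ended 7 bases before the start site. The stretch of LMNB1 held 1 CCAAT box and no other word.

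**Figure D1:**
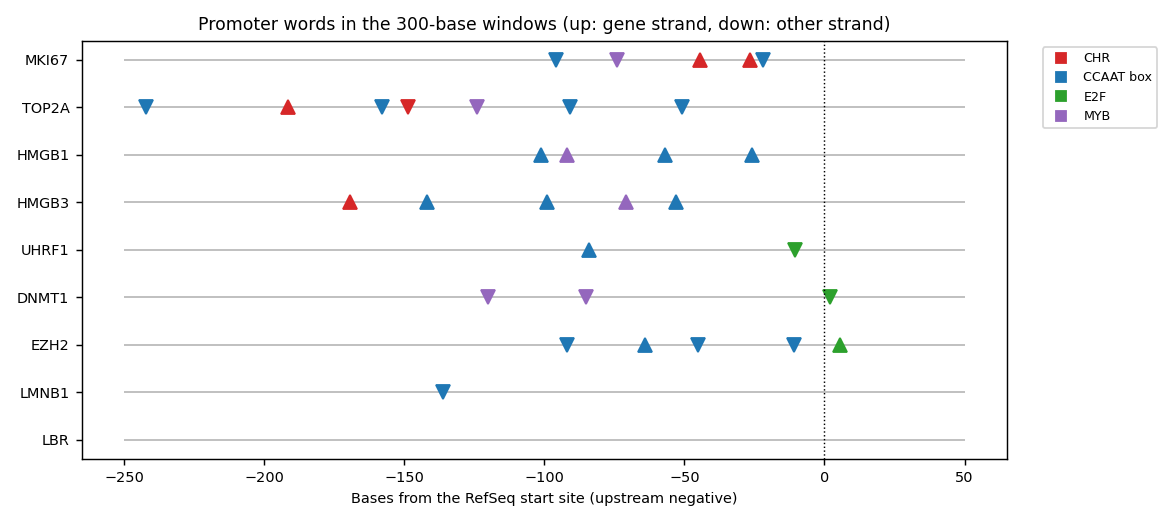
Positions of the searched words in the windows of 9 genes, from 250 bases before to 50 after the RefSeq start site (x axis, bases; triangles point up for the gene's strand and down for the other, coloured by word). CHR words appear only in MKI67, TOP2A and HMGB3 of these 9, E2F words only in UHRF1, DNMT1 and EZH2, and LBR has none.

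Windows were available for 9 of the 10 genes, and HMGB2 had no entry in the promoter table. CHR words were found in 3 of the 9, MKI67, TOP2A and HMGB3, and in 16.4% of all 35116 windows. E2F words were found in 3 others, UHRF1, DNMT1 and EZH2, and in 3.31% of all windows. The CCAAT box was present in 7 of 9 (34.6% of all windows) and the MYB word in 5 of 9 (19.7%). The forkhead word was in none of the 9 and in 3.42% of all windows. The LBR window starts 783 bases away from the start of the gene's canonical transcript in GENCODE V44. A word is a match of letters and not a measured binding site.

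On the hg38 annotation the genes themselves lie at chr10:128096659-128126423 (MKI67), chr17:40388525-40417896 (TOP2A), chr19:4903080-4962154 (UHRF1), chr19:10133342-10231286 (DNMT1) and chr7:148807257-148884321 (EZH2). The HMGB genes lie at chr13:30456704-30617597 (HMGB1), chr4:173331376-173334432 (HMGB2) and chrX:150980509-150990771 (HMGB3), and the envelope genes at chr5:126776623-126837020 (LMNB1) and chr1:225401502-225428925 (LBR). Exons of these genes share no bases with other genes, except 0.5% of those of DNMT1.

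The counts gave 16487394 to 30140550 read pairs assigned to genes per library, and the lowest count of any of the 10 genes in a library was 588. The share of pairs that did not align was 7.68 to 7.92% in siControl_siBoth and 9.09 to 10.9% in siBoth, against 1.73 to 3.03% in the other libraries, and its part in the siBoth values was not tested. MYBL2 was at 4.5 to 8.85 CPM (counts scaled to the library total) in siMYBL2 against 133 to 182 in siControl, and FOXM1 at 10.4 to 13.3 in siFOXM1 against 108 to 142. In siBoth, MYBL2 was at 6.18 to 9.81 CPM against 159 to 194 and FOXM1 at 10.1 to 14.9 against 127 to 145, so that depletion was seen in every library of the targeted groups. FOXM1 itself also fell in siMYBL2, by 0.73 on the log2 scale (SE 0.14, adjusted p = 0.00754), and under FDI-6 it was lower by less than 1.5-fold (log2 fold change -0.37, SE 0.081, adjusted p = 0.004). MYBL2 was also lower under FDI-6, at 116.9 to 153.1 CPM against 188.7 to 201.1 in control_FDI-6. The 5 epithelial markers summed to 2751 to 8232 CPM, led by the keratin KRT8. Of 4 lung lineage markers, NKX2-1, SFTPB and SFTPC stayed under 1 CPM in every library, and 6 markers of blood, fibroblasts, endothelium and muscle summed to 5.47 to 59.7 CPM, most of it COL1A1.

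In siControl the order of the genes was set on the TPM scale, which divides by transcript length as well as by library total. TOP2A led with 366 ± 30.7 TPM (SD, n = 4), followed by HMGB1 with 225 ± 15.0 and HMGB2 with 202 ± 15.7. HMGB3 (128 ± 19.0), LMNB1 (127 ± 15.1) and LBR (116 ± 10.0) lay within 1 SD of their neighbours. MKI67 (86.2 ± 14.1) and DNMT1 (79.0 ± 8.40) were likewise close, as were UHRF1 (57.3 ± 12.9) and EZH2 (48.1 ± 8.26) at the low end. All 10 genes passed the filter on low counts in every comparison.

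Depletion of MYBL2 lowered MKI67, TOP2A and UHRF1 to about 45 to 54% of siControl, while depletion of FOXM1 alone moved none of the 10 past the threshold. Depletion of both factors lowered the same 3 genes, MKI67 most. FDI-6 left these 3 near their controls and was accompanied by smaller decreases of HMGB1, HMGB2, HMGB3, EZH2 and LMNB1, none of them over 1.5-fold. A gene was called where the Benjamini-Hochberg adjusted p of edgeR's quasi-likelihood test, over all genes tested, was under 0.05 and the fold change was over 1.5. Because RNA came from whole cultures, a smaller share of cycling cells and less RNA per cell cannot be told apart in any of these values.

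**Figure D2:**
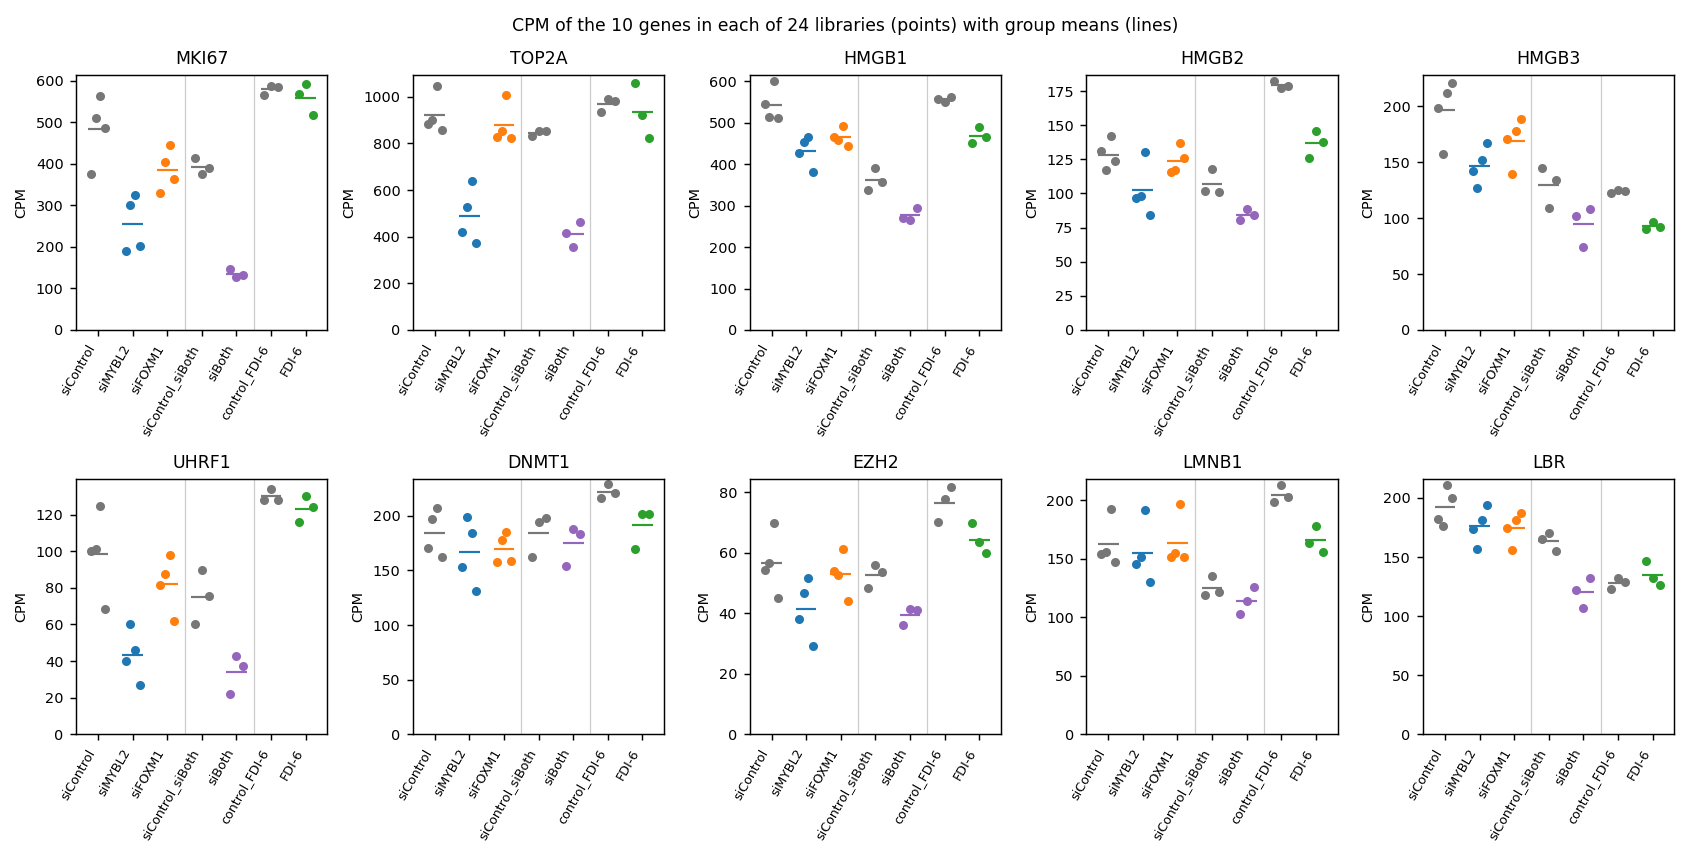
CPM (y axis, from 0) of each of the 10 genes in each of the 24 libraries (points) with the group mean (line); vertical lines separate the 3 experiments. The 4 siMYBL2 and 3 siBoth libraries lie below all of their controls for MKI67, TOP2A and UHRF1, and the FDI-6 libraries overlap theirs for these 3 genes.

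In siMYBL2 against siControl, 3 of 10 genes were called lower and 0 higher, where 3.52% of 16065 genes tested were called lower and 4.38% higher. By adjusted p alone the 10 genes counted 4 lower and 0 higher, against 9.53% lower and 8.53% higher of all genes (1531 and 1371 genes, or 1215 and 1771 with upper-quartile scaling). Blocked by replicate number, it was 8 of 10 lower, against 23.1% lower and 23.6% higher of all genes. Their median log2 fold change was -0.35, beside 0.015 for all genes. For 4 of the 10 every siMYBL2 library was below every siControl library, and 9 of 10 were lower in each of the 4 same-numbered pairs. Neither count was made over all genes, so neither shows a trait of these 10.

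In siFOXM1 against siControl, 0 of 10 genes were called by edgeR or by DESeq2, and 2 had an unadjusted p under 0.05 in either tool. Over all genes tested, 2060 had such a p with edgeR and 2005 with DESeq2. Of 15892 genes tested 0.591% were called lower and 0.0755% higher, and by adjusted p alone 1.09% were lower and 0.277% higher. The median of the 10 was -0.12 on the log2 scale, beside 0.0025 for all genes, and 8 of 10 were lower in each of the 4 same-numbered pairs. The count by pairs was not made over all genes. With the block on replicate number, 6 of 10 had an adjusted p under 0.05, all lower and all by less than 1.5-fold, where 14% of all genes were lower and 12.3% higher.

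In siBoth against siControl_siBoth, 3 of 10 genes were called lower and 0 higher, where 3.64% of 15812 genes tested were called lower and 2.8% higher. Called genes as a whole split 576 lower to 443 higher with the main scaling and 417 to 610 with upper-quartile scaling. By adjusted p alone 6 of the 10 were lower, against 7.77% of all genes lower and 4.55% higher. With upper-quartile scaling 3 of the 10 were lower, where 826 of the 15812 genes were lower and 1064 higher. In the fit with the replicate block, 8 of 10 were lower, against 18.5% of all genes lower and 16.3% higher. The median of the 10 was -0.40 on the log2 scale, beside 0.017 for all genes, and for 8 of 10 every siBoth library was below every control. Separation of the libraries was not counted over all genes, so it shows no trait of these 10.

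In FDI-6 against control_FDI-6, 0 of 10 genes were called by edgeR or DESeq2, where 5.77% of 15240 genes tested were called lower and 8% higher. By adjusted p alone 5 of 10 were lower and 0 higher, against 17.9% lower and 21% higher of all genes (2735 and 3200 genes, or 3228 and 2785 with upper-quartile scaling). At an unadjusted p under 0.05, in either direction, it was 6 of 10, where 7270 of the 15240 genes tested had such a p. The median of the 10 was -0.21 on the log2 scale, beside -0.012 for all genes. With the replicate block, for which FDI-6 has no basis, 4 of 10 were lower, against 15.6% of all genes lower and 18.3% higher. For 6 of 10 every FDI-6 library was below every control, a count that was not made over all genes and shows no trait of these 10.

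**Figure D3:**
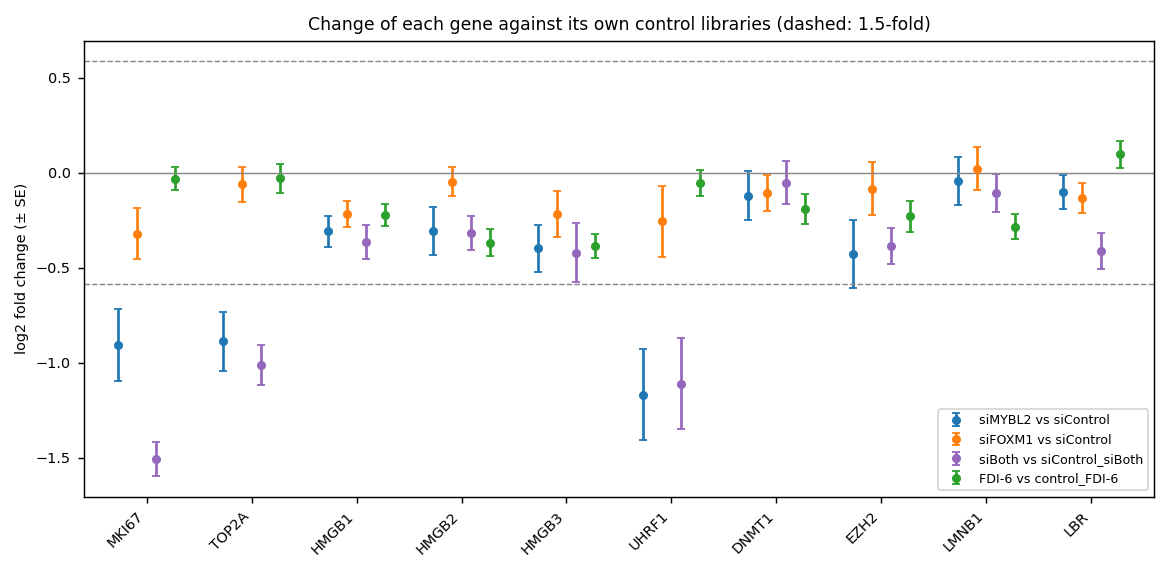
Log2 fold change with its standard error (y axis) of each of the 10 genes in the 4 treatments against their own controls; dashed lines mark a 1.5-fold change in either direction. MKI67, TOP2A and UHRF1 in siMYBL2 and siBoth lie below the lower line, the lowest being MKI67 in siBoth at -1.51, and no other point reaches it.

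MKI67 mRNA was lower in siMYBL2 and in siBoth than in their own controls, in 2 separate experiments. It stood at 190, 302, 324 and 203 CPM in siMYBL2 replicates 1 to 4 against 375, 511, 563 and 487 in siControl. No siMYBL2 library reached the lowest control. MKI67 fell to 53.4% of siControl (log2 fold change -0.91, SE 0.19, adjusted p = 0.012). In siFOXM1 it was at 330, 405, 445 and 363 CPM, below the same-numbered control in 4 of 4 pairs, and the groups overlapped. The log2 fold change there was -0.32 (SE 0.13, adjusted p = 0.349), and blocked by replicate number -0.32 (SE 0.034, adjusted p = 5.94e-08). In siBoth MKI67 was at 147, 127 and 133 CPM against 415, 375 and 389. That is 35.2% of the controls (log2 fold change -1.51, SE 0.090, adjusted p = 0.000152), the largest change of the 10 genes in any of the 4 comparisons. In the edgeR test of the siBoth effect against the siMYBL2 effect, given below, MKI67 did not pass. With the replicate block it did (adjusted p = 0.00216).

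TOP2A followed MKI67 in siMYBL2 but hardly moved in siFOXM1. It was at 420, 529, 639 and 372 CPM in siMYBL2 against 881, 900, 1045 and 856 in siControl, and all 4 libraries lay below all controls. TOP2A fell to 54.1% of siControl (log2 fold change -0.89, SE 0.16, adjusted p = 0.00542). In siFOXM1 it was at 829, 852, 1006 and 822 CPM, 3 libraries just under the lowest control and replicate 3 near the highest (log2 fold change -0.062, SE 0.090, adjusted p = 0.869). In siBoth it was at 416, 357 and 461 CPM against 831, 852 and 854. There it fell to 49.6% of the controls (log2 fold change -1.01, SE 0.11, adjusted p = 0.00121). The ratio of MKI67 to TOP2A, on the TPM scale, was 0.129 to 0.160 in siBoth and 0.197 to 0.224 in its controls, without overlap, and 0.202 to 0.256 in siMYBL2 beside 0.191 to 0.255 in siControl.

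UHRF1 showed the largest change of the 10 in siMYBL2. It was at 40.1, 60.4, 46.1 and 27.0 CPM in siMYBL2 against 100, 101, 125 and 68.6 in siControl. The groups did not overlap, though the lowest control, replicate 4, stood well below the other 3 and its same-numbered siMYBL2 library was also the lowest. UHRF1 fell to 44.5% of siControl (log2 fold change -1.17, SE 0.24, adjusted p = 0.0107). In siFOXM1 it was at 81.5, 87.6, 97.9 and 62.0 CPM, lower in 4 of 4 pairs (log2 fold change -0.26, SE 0.19, adjusted p = 0.657). When the replicate number was a block, the adjusted p was 9.96e-06. In siBoth it was at 22.2, 42.9 and 37.4 CPM against 59.95, 89.8 and 75.3. There it fell to 46.3% of the controls (log2 fold change -1.11, SE 0.24, adjusted p = 0.0232), and without siControl_siBoth replicate 2 or 3 the adjusted p was 0.0771 or 0.065.

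DNMT1, which works with UHRF1 at the replication fork, stayed near its controls in the knockdowns. It was at 153, 199, 184 and 131 CPM in siMYBL2 against 171, 197, 207 and 162, with overlap (log2 fold change -0.12, SE 0.13, adjusted p = 0.566). The 95% interval of that change, -0.38 to 0.13, includes 0 and does not reach the estimate for UHRF1. With replicates paired by number, it was -0.13 (adjusted p = 0.0312). In siFOXM1 the log2 fold change was -0.11 (SE 0.092, adjusted p = 0.725, with the block 0.0149), and in siBoth -0.052 (SE 0.11, adjusted p = 0.793), or 0.023 with upper-quartile scaling. The direction of DNMT1 in siBoth therefore depended on the scaling.

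EZH2 was at 38.0, 46.7, 51.5 and 29.3 CPM in siMYBL2 against 54.4, 56.6, 69.9 and 44.9 in siControl. The groups overlapped, but each library was below its same-numbered control. The log2 fold change was -0.43 (SE 0.18, adjusted p = 0.135), and blocked by replicate number -0.44 (SE 0.055, adjusted p = 2.63e-05). In siBoth EZH2 was at 36.0, 41.3 and 41.1 CPM against 48.3, 55.8 and 53.7, with no overlap. There the log2 fold change was -0.39 (SE 0.095, adjusted p = 0.0354), under 1.5-fold, and the adjusted p was 0.0616 to 0.12 when siBoth replicate 1 or 2 or siControl_siBoth replicate 2 or 3 was left out. It was 0.0714 with upper-quartile scaling and 0.0965 when all 24 libraries shared 1 fit. In siFOXM1 it was -0.084 (SE 0.14, adjusted p = 0.89).

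The 3 HMGB genes had log2 fold changes of -0.42 to -0.31 in siMYBL2 and siBoth, and only HMGB1 passed the test. HMGB1 was at 426, 452, 465 and 380 CPM in siMYBL2 against 545, 513, 599 and 511 in siControl, without overlap (log2 fold change -0.31, SE 0.080, adjusted p = 0.0271). Its adjusted p was 0.0517 to 0.0755 without siMYBL2 replicate 1 or 4 or siControl replicate 1 or 3. In siBoth it was at 269, 265 and 294 CPM against 337, 391 and 357 (log2 fold change -0.36, SE 0.090, adjusted p = 0.0355). HMGB1 in siFOXM1, at 444 to 492 CPM, was also below every control (log2 fold change -0.22, SE 0.067, adjusted p = 0.187, with the replicate block 2.14e-06). Without siBoth replicate 1 or 2 or siControl_siBoth replicate 2 or 3 the adjusted p of HMGB1 in siBoth was 0.0893 to 0.118, and with upper-quartile scaling 0.069.

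HMGB2 was at 96.6, 97.8, 130 and 84.5 CPM in siMYBL2 against 131, 117, 142 and 124, overlapping through replicate 3 (log2 fold change -0.31, SE 0.13, adjusted p = 0.125, with the replicate block 0.000542). HMGB3 was at 142, 127, 152 and 167 CPM against 198.4, 157, 212 and 221 (log2 fold change -0.40, SE 0.12, adjusted p = 0.0532, with the replicate block 3.72e-06). In siBoth the 2 genes changed by -0.32 (HMGB2, adjusted p = 0.0531) and -0.42 (HMGB3, adjusted p = 0.116) on the log2 scale, and with the replicate block the adjusted p was 0.00201 and 0.000207. In siFOXM1 HMGB2 changed by -0.047 and HMGB3 by -0.22, with adjusted p of 0.89 and 0.527, and HMGB3 had 5.11e-06 with the replicate block. Counts on 48 annotated HMGB1 pseudogenes came to 3.84 to 8.56% of the HMGB1 count in the same library, so that HMGB1 reads could be split with near-identical copies, whereas the 29 HMGB3 pseudogenes held at most 0.531%.

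The 2 nuclear envelope genes had the log2 fold changes nearest to 0 in siMYBL2. LMNB1 was at 146, 152, 192 and 130 CPM in siMYBL2 against 154, 156, 193 and 147 in siControl, lower in 4 of 4 pairs by 0.0056 to 0.18 on the log2 scale (log2 fold change -0.045, SE 0.13, adjusted p = 0.849). With upper-quartile scaling the sign of LMNB1 turned, at 0.0056. In siFOXM1 it was 0.020 (SE 0.11, adjusted p = 0.976), and in siBoth -0.11 (SE 0.099, adjusted p = 0.509). LBR was at 174, 157, 181 and 194 CPM in siMYBL2 against 182, 176, 211 and 200 (log2 fold change -0.10, SE 0.089, adjusted p = 0.467), and changed by -0.13 in siFOXM1 (SE 0.077, adjusted p = 0.538, with the replicate block 0.00262). In siBoth LBR was at 122, 107 and 132 CPM against 165, 170 and 155, with no overlap. There the log2 fold change was -0.41 (SE 0.094, adjusted p = 0.0277), and it passed the threshold in 1 of the 6 fits that left out a library (adjusted p up to 0.0947) and not with upper-quartile scaling (0.0515).

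**Figure D4:**
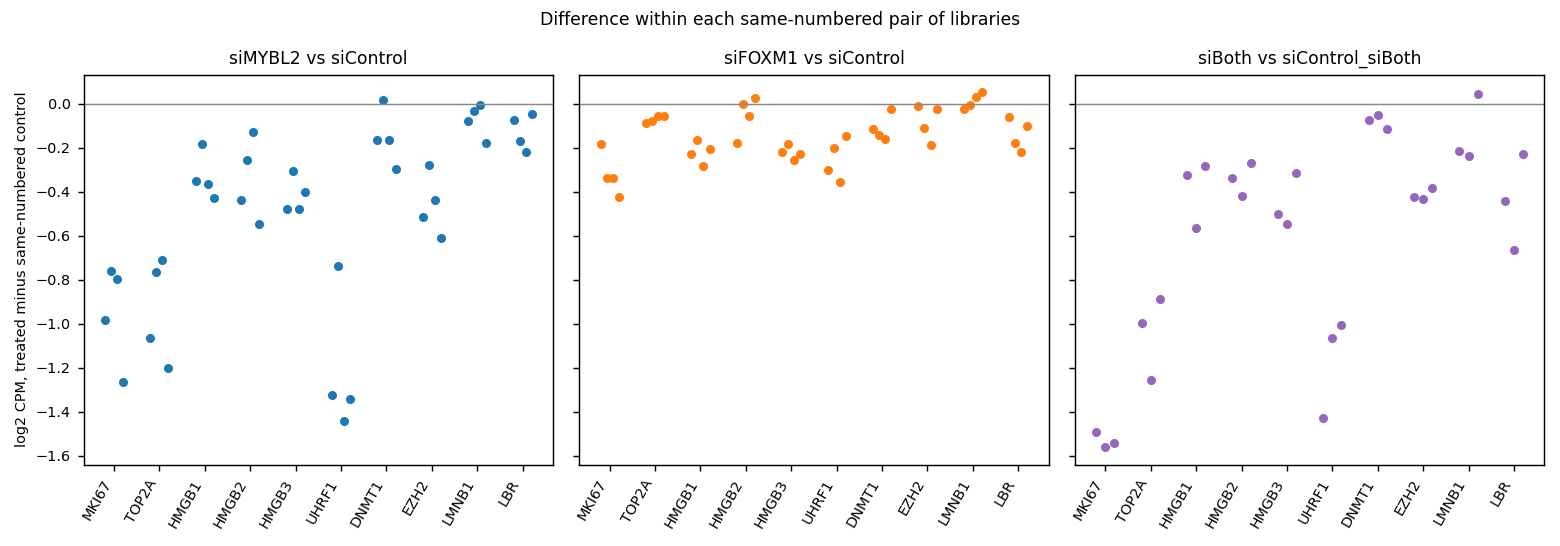
Difference in log2 CPM between each treated library and the control library of the same number (points; y axis, 0 is no difference) for the 10 genes in 3 comparisons. All 4 siMYBL2 pairs and all 3 siBoth pairs lie below 0 for MKI67, TOP2A, UHRF1, the HMGB genes, EZH2 and LBR, whereas siFOXM1 differences stay between -0.42 and 0.052.

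Whether the 2 single knockdowns differed was tested directly. FOXM1 also fell in siMYBL2, as given above, so this is no test of 1 factor against the other. In siMYBL2 against siFOXM1, 3 of 10 genes had an adjusted p under 0.05, all lower in siMYBL2, where 11.8% of 16172 genes were lower and 11.4% higher. They were MKI67 (log2 difference -0.59, SE 0.18, adjusted p = 0.0414), TOP2A (-0.83, SE 0.16, adjusted p = 0.0058) and UHRF1 (-0.92, SE 0.22, adjusted p = 0.0171). All 4 siMYBL2 libraries were below all 4 siFOXM1 libraries for these 3 genes and for none of the others. This separation was not counted over all genes. TOP2A kept an adjusted p under 0.05 in all 8 fits that left out a library, UHRF1 in 7 (0.0531 without siMYBL2 replicate 1) and MKI67 in 2, with 0.0505 to 0.103 without siMYBL2 replicate 1 or 4 or any siFOXM1 replicate. With upper-quartile scaling MKI67 had 0.0529. Blocked by replicate number, 7 of 10 were lower, where 24.3% of all genes were lower and 24.6% higher, the other 4 being HMGB1 (-0.10, adjusted p = 0.0348), HMGB2 (-0.28, 0.00161), HMGB3 (-0.18, 0.00162) and EZH2 (-0.36, 0.000384).

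The siBoth effect was set against the siMYBL2 effect as a difference of differences, each against its own controls. None of the 10 genes had an adjusted p under 0.05 with edgeR or DESeq2, where 0.176% of 17012 genes were lower and 0% higher with edgeR. With either tool 2 had an unadjusted p under 0.05, beside 1323 of all genes with edgeR and 1297 with DESeq2. MKI67 was lower in siBoth by a further -0.60 on the log2 scale (SE 0.25, 95% interval -1.08 to -0.12, adjusted p = 0.58), and LBR by -0.31 (SE 0.13, adjusted p = 0.599). With the block on replicate number, these 2 passed, where 4.79% of all genes were lower and 2.26% higher, MKI67 at -0.58 (SE 0.098, adjusted p = 0.00216) and LBR at -0.31 (SE 0.092, adjusted p = 0.0483). TOP2A (-0.13, 95% interval -0.54 to 0.29) and UHRF1 (0.055, 95% interval -0.68 to 0.79) had intervals that include 0. The 2 effects come from separate experiments, which cannot be told apart from the treatments in this difference.

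FDI-6 gave another ordering of the 10 genes. MKI67 was at 568, 592 and 517 CPM under FDI-6 against 566, 587 and 586 in its controls (log2 fold change -0.031, SE 0.060, adjusted p = 0.72). TOP2A was at 1060, 923 and 824 CPM against 935, 992 and 981 (-0.030, SE 0.076, adjusted p = 0.783), its FDI-6 libraries more spread than the controls, and UHRF1 at 116, 130 and 124 against 128, 134 and 128 (-0.056, SE 0.068, adjusted p = 0.547). The 95% interval of MKI67 was -0.15 to 0.087 and that of UHRF1 -0.19 to 0.077. Without FDI-6 replicate 1, TOP2A had an adjusted p of 0.0402 at a log2 fold change of -0.12.

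The decreases under FDI-6 that passed were in HMGB1, HMGB2, HMGB3, LMNB1 and EZH2. HMGB3 was at 90.5, 96.3 and 91.9 CPM against 122, 125 and 124, the clearest separation of the 10 (log2 fold change -0.38, SE 0.064, adjusted p = 0.00076). HMGB2 was at 126, 146 and 138 CPM against 182, 177 and 179 (-0.37, SE 0.071, adjusted p = 0.0018). HMGB1 was at 451, 490 and 465 CPM against 557, 549 and 562 (-0.22, SE 0.057, adjusted p = 0.00921), and LMNB1 at 164, 178 and 156 against 199, 213 and 203 (-0.28, SE 0.067, adjusted p = 0.00589). These 4 genes showed no overlap between the groups, and neither did EZH2 and DNMT1. HMGB1, HMGB2, HMGB3 and LMNB1 stayed at an adjusted p under 0.05 in all 6 fits that left out a library, although HMGB3 and LMNB1 had 0.0539 and 0.0979 when all 24 libraries shared 1 fit. EZH2, at 69.7, 63.5 and 59.8 CPM against 70.3, 77.6 and 81.8, also passed (-0.23, SE 0.082, adjusted p = 0.0442). Without FDI-6 or control_FDI-6 replicate 2 or 3 the adjusted p of EZH2 was 0.116 to 0.18. It was 0.0505 with no filter on low counts, 0.0946 with the block and 0.307 when all 24 libraries shared 1 fit. DNMT1 changed by -0.19 (SE 0.078, adjusted p = 0.0735, or 0.0369 without FDI-6 replicate 3) and LBR by 0.097 (SE 0.070, adjusted p = 0.301).

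The FDI-6 effect was compared with that of siFOXM1, since both were aimed at FOXM1. They come from separate experiments, which cannot be told apart from the treatments in this difference. None of the 10 genes differed at an adjusted p under 0.05 with edgeR, where 8.64% of 17026 genes were lower and 12.3% higher. An unadjusted p under 0.05 was found for 1 of the 10, beside 5849 of all genes, and DESeq2 called 1 of the 10. That gene was HMGB2, lower under FDI-6 by -0.32 on the log2 scale (SE 0.11, adjusted p = 0.0521, with DESeq2 0.0321). LMNB1 was lower by -0.31 (SE 0.15, adjusted p = 0.151). In the fit with the replicate block, which pairs the siRNA libraries but has no such basis for FDI-6, 2 of 10 were lower and 2 higher, where 18.3% of all genes were lower and 20% higher: HMGB2 (adjusted p = 0.00436), LMNB1 (0.00186), MKI67 (0.28 higher, 0.00656) and LBR (0.23 higher, 0.032).

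Against the siMYBL2 effect, a comparison added after values were seen, 3 of 10 genes were higher for FDI-6 and 0 lower, where 14.6% of 17167 genes were higher and 10.1% lower. MKI67 differed by 0.88 (SE 0.23, adjusted p = 0.0131), TOP2A by 0.86 (SE 0.20, adjusted p = 0.0063) and UHRF1 by 1.12 (SE 0.29, adjusted p = 0.0116) on the log2 scale. These 3 kept an adjusted p under 0.05 in all 14 fits that left out a library and under all 7 other settings. FDI-6 and siMYBL2 were separate experiments, which cannot be told apart from the treatments in this difference under any of these fits. Upper-quartile scaling moved the median of all genes in this comparison by -0.11 and MKI67 to 0.77, TOP2A to 0.75 and UHRF1 to 1.01. With the replicate block LMNB1 also passed, lower under FDI-6 (log2 difference -0.23, adjusted p = 0.0265), where 18% of all genes were lower and 21.4% higher.

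For 5 of the genes, TOP2A, UHRF1, EZH2, DNMT1 and LMNB1, paralogs were examined, and none was called in the 4 comparisons. TOP2B, the other topoisomerase II, changed by 0.057 in siMYBL2 and -0.11 in siBoth on the log2 scale, with neither past the threshold. UHRF2 changed by -0.14 and -0.20 (adjusted p = 0.149 and 0.169) and rose under FDI-6 by 0.30, less than 1.5-fold (adjusted p = 0.00797). EZH1, the other H3 lysine 27 methyltransferase, changed by 0.16 in both siMYBL2 and siFOXM1 and by 0.024 in siBoth (adjusted p = 0.303, 0.479 and 0.88). Of the de novo DNA methyltransferases, DNMT3B changed by -0.41 in siMYBL2 (adjusted p = 0.267), -0.40 in siBoth (adjusted p = 0.0414) and -0.40 under FDI-6 (adjusted p = 0.0112), and by 0.38 in siFOXM1 (adjusted p = 0.452). DNMT3A changed by 0.18 and 0.23 in siMYBL2 and siBoth (adjusted p = 0.306 and 0.091). LMNB2 changed by -0.44 in siMYBL2 (adjusted p = 0.0547), -0.25 in siBoth (0.344) and -0.40 under FDI-6 (0.0111), and LMNA by -0.23 under FDI-6 (0.0413). The difference between a gene and its paralog was not tested.

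**Figure D5:**
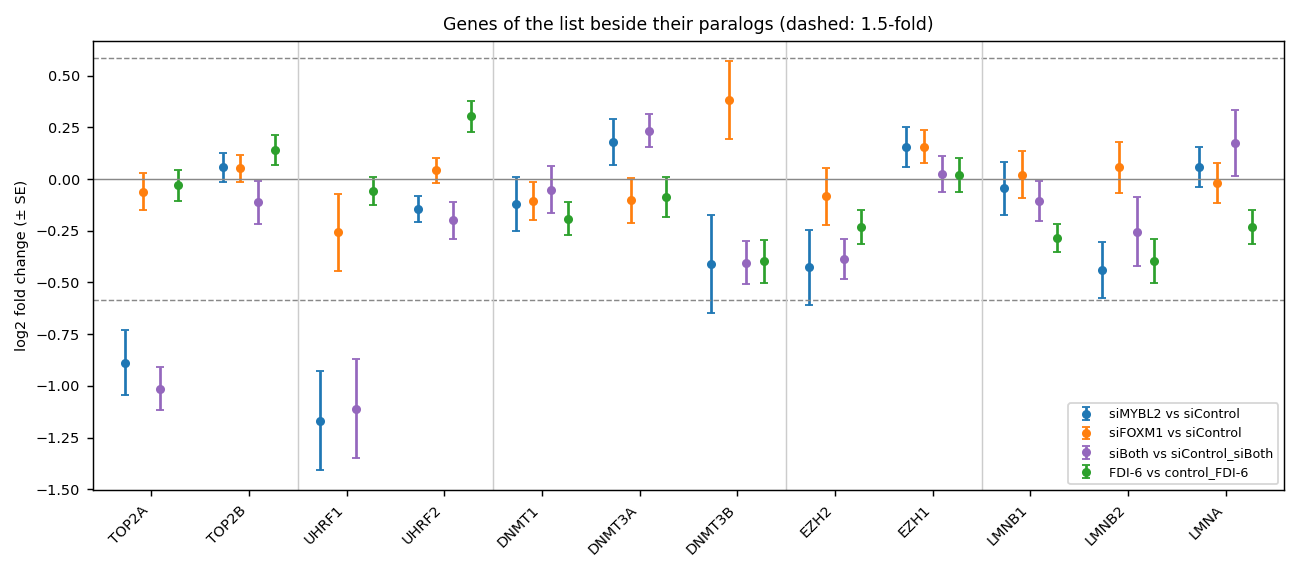
Log2 fold change with its standard error (y axis) of 5 of the genes beside their paralogs in the 4 treatments; dashed lines mark a 1.5-fold change. TOP2A and UHRF1 lie below the lower line in siMYBL2 and siBoth, and no paralog crosses either line.

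Partners of the same machineries were counted by list, beside the share of all genes called lower (3.52% in siMYBL2, 0.591% in siFOXM1 and 3.64% in siBoth). Of 10 mitotic chromosome genes, 2 were called lower in siMYBL2 and 4 in siBoth. With upper-quartile scaling it was 1 and 3, where 476 of 16065 and 417 of 15812 genes were. In siFOXM1 0 were called, and 3 had an unadjusted p under 0.05 with edgeR, beside 2060 of 15892 genes. NCAPG, a subunit of the condensin I complex, fell by 0.80 and 1.10 in siMYBL2 and siBoth, and CDCA2, which targets protein phosphatase 1 to chromatin, fell by 0.60 and 0.99. SMC4 (-0.62) and NUSAP1 (-0.79) were also called in siBoth. Exons of NCAPG overlap a gene on the other strand over 33.7% of their bases, those of SMC4 over 22.0%, and NUSAP1, at 1.32 to 6.64 CPM, shares 86.8% of its exon bases with other genes on its strand, so these values are uncertain. Under FDI-6 NUSAP1 was called lower (-0.93) and TOP1, another nuclear topoisomerase, higher (0.66).

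Of 10 PRC2 genes, 1 was called lower in siMYBL2, 1 in siFOXM1 and 2 in siBoth, against the same shares of 3.52%, 0.591% and 3.64% of all genes. The core subunit SUZ12 was at 58.7, 71.4, 51.2 and 59.6 CPM in siFOXM1 against 146, 151, 164 and 143 in siControl. It fell by 1.32 in siFOXM1 (SE 0.096, adjusted p = 0.000398) and by 0.83 in siBoth (SE 0.096, adjusted p = 0.00189). The value of its catalytic partner EZH2 in siFOXM1 was -0.084, as given above. JARID2, an accessory subunit that helps recruit PRC2, was at 18.1, 18.2, 20.6 and 18.8 CPM in siMYBL2 against 41.5, 45.5, 52.9 and 48.5. It fell by 1.29 in siMYBL2 (SE 0.090, adjusted p = 8.3e-05) and by 1.2 in siBoth (SE 0.13, adjusted p = 0.00121). The direct test of siMYBL2 against siFOXM1 separated the 2 subunits, with SUZ12 higher by 1.16 (adjusted p = 0.00012) and JARID2 lower by 1.31 (adjusted p = 1.47e-05) in siMYBL2.

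Of 9 other HMG genes, HMGN4 (-0.64) and HMG20B (-0.72) were called lower in siMYBL2, where 3.52% of all genes were. In siFOXM1 and siBoth 0 were called. There 1 and 3 had an unadjusted p under 0.05 with edgeR, beside 2060 of 15892 and 4683 of 15812 genes. Under FDI-6, HMGA2, an architectural chromatin protein, rose by 1.72 on the log2 scale (SE 0.074, adjusted p = 5.47e-08), from 60.5 to 62.6 CPM in the controls to 189 to 215. HMGN3 (-0.82) and HMG20B (-0.64) were called lower there, so that 2 of 9 were lower and 1 higher, against 5.77% and 8% of all genes. Exons of HMGN3 overlap a gene on the other strand over 10.7% of their bases and those of HMG20B over 9.6%. The strand setting of the counts is not given, so the values of HMGN3 and HMG20B are uncertain. Of 12 DNA methylation genes, MBD3 under FDI-6 (-0.65) was the only call in the 4 comparisons. Of 9 nuclear lamina genes, TMPO in siBoth (-0.67), which encodes lamina-associated polypeptide 2, was the only call.

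Across the 24 libraries, each value taken as log2 CPM less the mean of its experiment's controls, the 45 pairs of these genes had Pearson's r of -0.17 to 0.94 with a median of 0.61. MKI67 and TOP2A were the most alike and DNMT1 and LBR the least. All points share libraries and controls, so that these are descriptions without a test. Among 11369 well-measured genes (mean count of 100 or more, the 10 included), the 5 outside the list closest to the mean profile of the 10 were ESPL1 (r = 0.96), KIF18B (0.96), PLK1 (0.95), AURKB (0.95) and HJURP (0.95). The gene closest to TOP2A was the mitotic kinesin KIF11 (r = 0.99), and the gene closest to MKI67 was the kinetochore gene CENPF (0.97). EZH2 was closest to MCM4, a subunit of the replicative helicase (0.96), and UHRF1 to ESYT1 (0.97). HMGB1 was closest to KIF2C (0.94), HMGB2 to SHCBP1 (0.91), LMNB1 to STMN1 (0.90), HMGB3 to NARF (0.89), LBR to GPC6 (0.89) and DNMT1 to PASK (0.89). Among the 10, LBR, DNMT1, HMGB3 and LMNB1 were the least close to the mean profile, with r of 0.57 to 0.66, whereas HMGB1 (0.95) and EZH2 (0.91) were the closest. Each of the 10 is part of that mean, so these values are not comparable with those of genes outside the list.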

How the data were processed

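RNA-seq of A549 cells in 7 groups (24 libraries) was used. Per the labels and the study's methods, the authors trimmed reads with Trim Galore, aligned them to hg38 with STAR, counted read pairs per GENCODE V29 gene with HTSeq and deposited the raw counts, without normalization. Tool versions and the strand setting are not given in the sources used here. HTSeq totals were left out of library sizes. Names, positions and lengths came from GENCODE V44 (58207 of 58721 rows matched).

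Each treatment was compared with its own controls by edgeR 4.0.16 in R 4.3.3 (filterByExpr, TMM, quasi-likelihood test, Benjamini-Hochberg over all genes tested). Differences between treatments were tested as contrasts in 1 fit and called at an adjusted p under 0.05 alone. Standard errors are the log2 fold change divided by the square root of F, and 95% intervals are the log2 fold change with 1.96 standard errors on either side. With so few libraries these intervals are approximate and somewhat too narrow. CPM used TMM factors over all 24 libraries, and TPM used the canonical transcript length. The procedure was tested on simulated data. No 2 libraries of a group agreed within sampling noise.

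Same-numbered siRNA libraries deviated together from their group means (lowest correlation across genes 0.573 for siMYBL2, 0.539 for siFOXM1 and 0.553 for siBoth, each with controls), and those of FDI-6 did not (lowest -0.288). Blocked values are therefore given for siRNA comparisons where they moved an adjusted p across 0.05. DESeq2 1.42.0, RLE and upper-quartile scaling, other count filters, 1 fit of all 24 libraries and leaving out each library were alternatives. The text names the 10 genes in each treatment against its controls, those with an adjusted p under 0.05 in any fit and a few others in the differences between treatments, and the paralogs and called partners from lists of 9 to 12 genes. These genes and lists were chosen with earlier results of these data known. Promoter windows were RefSeq's. Supplementary tables of the study were not used.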

Additional observations from a re-analysis of the deposited data

Results flagged for a closer look

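Among 30 groups of 4 libraries checked (10 genes in siMYBL2, siFOXM1 and siControl), 2 held a library far from the other 3, a share that chance gives in about 1 in 20 groups. In siFOXM1, TOP2A was at 1006 CPM in replicate 3 against 822 to 852 in the other 3, and LMNB1 at 197 CPM in the same library against 152 to 155. In siControl the same-numbered library was also the highest for TOP2A (1045 CPM) and LMNB1 (193 CPM), so that the differences within that pair were small.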

How the results depend on the processing

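No count of called genes among the 10 changed in siMYBL2 (3), siFOXM1 (0) or FDI-6 (0) under any alternative; in siBoth it was 2 to 3 with a library left out. Over all genes, the replicate block gave 1991 calls in place of 1269 for siMYBL2, 401 in place of 106 for siFOXM1, 1849 in place of 1019 for siBoth, 7903 in place of 3757 for siMYBL2 against siFOXM1, 1200 in place of 30 for siBoth minus siMYBL2, 6523 in place of 3566 for FDI-6 minus siFOXM1 and 6772 in place of 4248 for FDI-6 minus siMYBL2. The block and the pairing made 7, 2 and 4 of the 10 pass in the first 3 of those differences, where the main design had 3, 0 and 0, and 4 in place of 3 in the last. No filter on low counts gave 1545 calls in siBoth. For siBoth minus siMYBL2, DESeq2 gave 138 and a fit of all libraries 54. In FDI-6 minus siFOXM1, upper-quartile scaling, DESeq2 and a minimum of 10 counts each made 1 of the 10 pass. Splits of lower to higher genes moved with upper-quartile scaling, from 1915 and 1842 to 1549 and 2275 (siMYBL2 against siFOXM1), from 1471 and 2095 to 1945 and 1787 (FDI-6 minus siFOXM1) and from 1740 and 2508 to 2581 and 1804 (FDI-6 minus siMYBL2).

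With 1 library left out, genes called ranged from 56 to 115 (siFOXM1), 587 to 1097 (siBoth), 7 to 30 (siBoth minus siMYBL2) and 2365 to 4073 (FDI-6 minus siFOXM1), and genes of the 10 called from 1 to 4 (siMYBL2 against siFOXM1) and 0 to 2 (FDI-6 minus siFOXM1). Counts moved by over 1.5 times without siFOXM1 replicate 1 (56) or 3 (69) or siControl replicate 1 (66) or 2 (68) in siFOXM1, without siBoth replicate 2 (587) or siControl_siBoth replicate 2 (589) or 3 (643) in siBoth, and without control_FDI-6 replicate 1 (2365) in FDI-6 minus siFOXM1. In siBoth minus siMYBL2 they did so without siMYBL2 replicate 1 (14), siControl replicate 1 (7), 2 (9) or 3 (11), siBoth replicate 1 (8) or 2 (8), or siControl_siBoth replicate 1 (14), 2 (8) or 3 (10). In siMYBL2 against siFOXM1, TOP2A alone passed without siMYBL2 replicate 1. Values near 0 changed sign. With upper-quartile scaling LMNB1 in siMYBL2 was 0.0056 and DNMT1 in siBoth 0.023. With a library left out the log2 fold change ranged from -0.17 to 0.038 (LMNB1, siMYBL2), -0.14 to 0.0030 (TOP2A, siFOXM1), -0.10 to 0.0042 (HMGB2, siFOXM1), -0.18 to 0.034 (EZH2, siFOXM1), -0.084 to 0.11 (LMNB1, siFOXM1), -0.14 to 0.021 (DNMT1, siBoth), -0.075 to 0.014 (MKI67, FDI-6) and -0.12 to 0.045 (TOP2A, FDI-6). The cause of these shifts was not tested. The lowest count of any of the 10 genes in a library was 588, and NUSAP1, at 1.32 to 6.64 CPM, was measured on fewer reads.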
